A study of Rattus norvegicus with 6 samples.

Results

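The 10 genes described here encode the signalling chains of the T cell receptor, its coreceptors and the kinases that act first after it is engaged: Cd3d, Cd3e, Cd3g, Cd247, Cd4, Cd8a, Cd8b, Cd2, Lck and Zap70. All probe sets that the platform annotation gives to 1 of these genes alone were taken, with no filter on low levels, which gave 15 of the 31042 probe sets of the array that are not controls. The 10 genes are among 14217 genes with such a probe set. RNA came from the metrial gland of pregnant rats on gestation day 13.5, a mesometrial region of the uterus in which maternal natural killer cells gather around the spiral arteries. The 3 ambient arrays came from dams in 21% oxygen. The 3 hypoxia arrays came from dams in 10.5% oxygen from gestation day 6.5 to day 13.5. The labels give no strain, no age and no genetic change for either group, and they leave it unsaid whether each replicate was another animal. The p-values here therefore reflect spread among arrays, part of which may be technical. The tissue was profiled whole, so that fewer cells of a type and less RNA per cell cannot be told apart.

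The T cell receptor itself has no signalling tail. It is carried to the cell surface with the CD3 gamma, delta, epsilon and zeta chains, whose tails hold tyrosine motifs. Lck, held at the coreceptors CD4 and CD8, phosphorylates these motifs, and Zap70 docks on them and passes the signal on. Natural killer cells lack the receptor but share part of this machinery: CD3 zeta (Cd247) pairs with their own activating receptors, Lck and Zap70 act behind it, and natural killer cells of the rat carry CD2 and the CD8 alpha chain. Macrophages of the rat carry CD4. The members were therefore described as T-restricted (Cd3d, Cd3e, Cd3g and Cd8b, with 5 probe sets), shared with natural killer cells (Cd247, Cd8a, Cd2, Lck and Zap70, with 9) and shared with macrophages (Cd4, with 1).

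Because the members were lower together, the 250 bases before the RefSeq starts (build GRCr8) were examined, with 9 windows for 8 of the genes. Cd4 and Cd8b had no entry, and Lck had 2 windows. The windows of Cd3d, Cd3g and Cd247 and 1 of the 2 of Lck overlapped the annotated span of the gene itself. None was left out of the counts for this. Cd3e is shown as a T-restricted gene and Lck and Zap70 as the kinases, each with a window that overlaps no annotated gene. Capitals mark GGAAG, a core bound by ETS factors of lymphocytes, and ACGTG, a core of the hypoxia response element, or their reverse complements. GGAA followed by another base was left unmarked and uncounted. The motifs did not overlap each other.
Cd3e, chr8:54211771-54212020, minus strand: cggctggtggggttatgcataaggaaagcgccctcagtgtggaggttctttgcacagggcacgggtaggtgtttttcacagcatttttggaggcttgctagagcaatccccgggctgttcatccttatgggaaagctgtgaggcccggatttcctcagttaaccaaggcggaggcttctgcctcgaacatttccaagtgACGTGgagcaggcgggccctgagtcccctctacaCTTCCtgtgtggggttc
Lck, chr5:147201268-147201517, minus strand: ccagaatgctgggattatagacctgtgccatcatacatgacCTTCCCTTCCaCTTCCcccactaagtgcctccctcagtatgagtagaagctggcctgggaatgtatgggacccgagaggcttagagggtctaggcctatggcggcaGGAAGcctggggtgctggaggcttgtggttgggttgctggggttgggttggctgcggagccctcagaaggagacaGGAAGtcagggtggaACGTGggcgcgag
Zap70, chr9:46485355-46485604, plus strand: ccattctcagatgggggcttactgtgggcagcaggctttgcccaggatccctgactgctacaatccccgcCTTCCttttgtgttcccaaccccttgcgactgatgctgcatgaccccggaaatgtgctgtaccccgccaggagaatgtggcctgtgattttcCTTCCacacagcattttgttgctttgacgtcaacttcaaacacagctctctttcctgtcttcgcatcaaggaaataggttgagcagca
GGAAG was found on either strand in 8 of the 9 windows, against 63.3% of 33469 windows of all genes. It stood 5 times before Lck, 2 times before Zap70 and 1 time before Cd3e, and the window of Cd8a held none. ACGTG was found in 2 of the 9 windows, against 16.6% of all. It began 51 bases before the start of Cd3e and 13 bases before the Lck start shown, and the other Lck window did not hold it. GCGTG, the other hypoxia response core, was in 0 of the 9 and in 25.9% of all. The RUNX core TGTGGT was in 2 of the 9 (Cd2 and the Lck window shown) and in 14.5% of all. These matches are letters in a window and not measured binding.

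The arrays shared a common scale, with medians between 6.44 and 6.47 on the log2 scale. Arrays of a group correlated at 0.995 to 0.997 over all probe sets, and arrays of different groups at 0.989 to 0.993. As a guide to background, the highest of 27 probe sets for bacterial transcripts stood at 5.0 on any array. The actin control, which tracks RNA degradation, had a 3' minus 5' signal of 0.50 ± 0.073 in ambient and of 0.67 ± 0.097 in hypoxia (SD, n = 3 each). Its part in the results was not tested.

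The member genes were lower in the hypoxia arrays at each of the 15 probe sets, by 0.17 to 1.11 on the log2 scale, with a median difference of -0.53. The median of all 31042 probe sets was -0.019, and 55.4% of them lay below 0. In 14 of the 15, each hypoxia array lay below each ambient array, as did 13.7% of all probe sets; the exception was Cd4. By limma, 4 of the 15 passed an adjusted p of 0.05, all lower, against 1.12% of all probe sets called lower: Cd3g, Cd247 at 1 of its 2 probe sets and Cd8a at 2 of its 3. At an unadjusted p under 0.05 there were 14 of the 15, against 9.85% of all probe sets. The count of 4 depended on single arrays. It was 0 without ambient replicate 1 or hypoxia replicate 2, where 13 and 14 had an unadjusted p under 0.05, and 1 without ambient replicate 3 or hypoxia replicate 1, where 13 and 12 did.

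**Figure D1:**
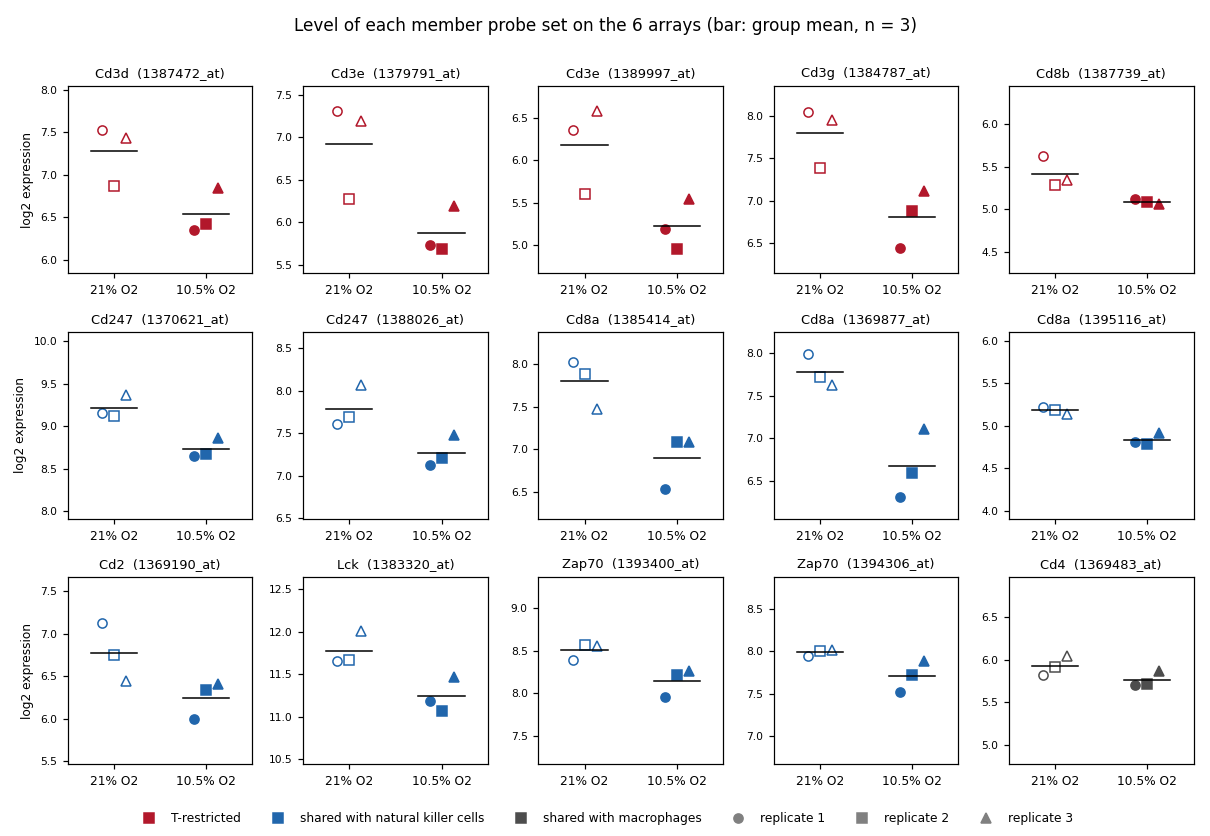
Log2 expression of the 15 member probe sets on each array (vertical axis, spanning 2.2 log2 units in each panel and set separately, so heights are not comparable between panels) in 21% and 10.5% oxygen. Symbols are replicates, bars are group means, and in each panel but that of Cd4 every hypoxia point lies below every ambient point.

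Among the CD3 chains, Cd3g fell. This gene encodes the gamma chain, which pairs with epsilon. It stood at 8.04, 7.39 and 7.95 on ambient replicates 1, 2 and 3 and at 6.45, 6.88 and 7.11 on the hypoxia arrays. The groups were 0.29 apart at their nearest arrays, with ambient replicate 2 the lowest of its group. The difference was -0.98 (SE 0.20, 95% interval -1.44 to -0.53), a 1.98-fold lower level with a limma adjusted p of 0.0366. Leaving out ambient replicate 1 or 3, or hypoxia replicate 1 or 2, ended the call, and over all alternatives the adjusted p ranged from 0.0235 to 0.136.

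Cd3e, the epsilon chain, partner of both gamma and delta, had the largest difference among the CD3 genes but did not pass. Its brighter probe set read 7.31, 6.27 and 7.19 in ambient and 5.74, 5.69 and 6.19 in hypoxia. Ambient replicate 2 came within 0.078 of hypoxia replicate 3. The difference was -1.05 (SE 0.26, 95% interval -1.63 to -0.47; limma adjusted p = 0.0623), and the dimmer probe set gave -0.95 (adjusted p = 0.0676). Without ambient replicate 2 the difference at the brighter probe set was -1.37 and passed (adjusted p = 0.0167, within 0.015 to 0.20 for all settings run). The dimmer probe set stood at 5.19, 4.96 and 5.54 in hypoxia, so that replicate 2 lay at bacterial control level.

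Cd3d, the delta chain, read 7.53, 6.87 and 7.43 in ambient and 6.35, 6.42 and 6.84 in hypoxia. Here too ambient replicate 2 was the lowest of its group, and only 0.030 separated it from hypoxia replicate 3. The difference was -0.74 (SE 0.19, 95% interval -1.17 to -0.31; limma adjusted p = 0.0697). It passed without ambient replicate 2 (-0.95, adjusted p = 0.0389) or hypoxia replicate 3 (-0.89, 0.0451), over a range of 0.0286 to 0.212.

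Cd8b, the CD8 beta chain of cytotoxic T cells, was faint. Its ambient values were 5.63, 5.28 and 5.34 and its hypoxia values 5.12, 5.08 and 5.06, all of them above the highest bacterial control. All 3 hypoxia arrays lay below all 3 ambient arrays. The difference of -0.33 (SE 0.11, 95% interval -0.57 to -0.091) did not pass (limma adjusted p = 0.13).

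Cd247, the zeta chain, fell at 1 of its 2 probe sets. The brighter (1370621_at) read 9.15, 9.12 and 9.37 in ambient and 8.65, 8.67 and 8.86 in hypoxia, with 0.26 between the groups. Replicate 3 was the highest array of each group. The difference was -0.49 (SE 0.095, 95% interval -0.70 to -0.28; limma adjusted p = 0.0304), a 1.40-fold lower level. Leaving out a single ambient array, or hypoxia replicate 1 or 2, ended the call, as did the mean of both probe sets (0.0513), with adjusted p over a range of 0.0123 to 0.106. The dimmer probe set (1388026_at) gave a similar size, -0.52 (SE 0.14), and did not pass (adjusted p = 0.0808).

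Cd8a, the CD8 alpha chain that T cells pair with beta and that natural killer cells of the rat carry without it, fell at 2 of its 3 probe sets. At 1369877_at it read 7.99, 7.72 and 7.63 in ambient and 6.31, 6.59 and 7.11 in hypoxia. The gap of 0.52 between the nearest arrays was the widest among the 15 member probe sets. The difference was -1.11 (SE 0.19, 95% interval -1.54 to -0.68), or 2.16-fold lower, with a limma adjusted p of 0.0187. At 1385414_at, the brightest of the 3 by mean, it read 8.03, 7.89 and 7.47 in ambient and 6.53, 7.08 and 7.08 in hypoxia. The difference there was -0.90 (SE 0.18; limma adjusted p = 0.036). The call at 1369877_at ended when a single ambient array or hypoxia replicate 2 was left out (adjusted p range 0.00565 to 0.0656). That at 1385414_at ended when replicate 1 or 2 of either group was left out (range 0.022 to 0.111). The remaining probe set, 1395116_at, stood at or below the highest bacterial control on all 3 hypoxia arrays and was at least 1.13-fold lower, taking that control's level of 5.0 for hypoxia (ambient 5.18 ± 0.04, hypoxia 4.84 ± 0.06, limma adjusted p = 0.0522).

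Cd2, an adhesion receptor of T and natural killer cells, read 7.13, 6.75 and 6.45 in ambient and 6.00, 6.34 and 6.41 in hypoxia. Ambient replicate 3 and hypoxia replicate 3 lay 0.039 apart. The difference was -0.53 (SE 0.18, 95% interval -0.92 to -0.13) and did not pass (limma adjusted p = 0.147).

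Lck and Zap70, the kinases, had smaller differences than the CD3 genes. Lck read 11.65, 11.67 and 12.01 in ambient and 11.18, 11.07 and 11.47 in hypoxia, with 0.18 between the groups. Its difference was -0.54 (SE 0.12, 95% interval -0.82 to -0.26), a level 68.8% of that in ambient, and its limma adjusted p was 0.0505. It lay at the edge of the threshold. It passed with the 40% filter on low means (0.0494), quantile normalization (0.0421), median centring (0.0479), array weights (0.0463) or without hypoxia replicate 3 (0.0245), and reached 0.146 without ambient replicate 3.

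Zap70 read 8.39, 8.57 and 8.56 in ambient and 7.96, 8.22 and 8.26 in hypoxia at its brighter probe set. The difference was -0.36 (SE 0.10, 95% interval -0.58 to -0.13; limma adjusted p = 0.0946). Its dimmer probe set gave -0.28 (SE 0.10, adjusted p = 0.182), and neither passed under any alternative run. Cd4, the coreceptor for MHC class II, read 5.82, 5.92 and 6.04 in ambient and 5.70, 5.71 and 5.87 in hypoxia. Its groups overlapped, and the difference was -0.17 (SE 0.098, 95% interval -0.39 to 0.054; limma adjusted p = 0.389).

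**Figure D2:**
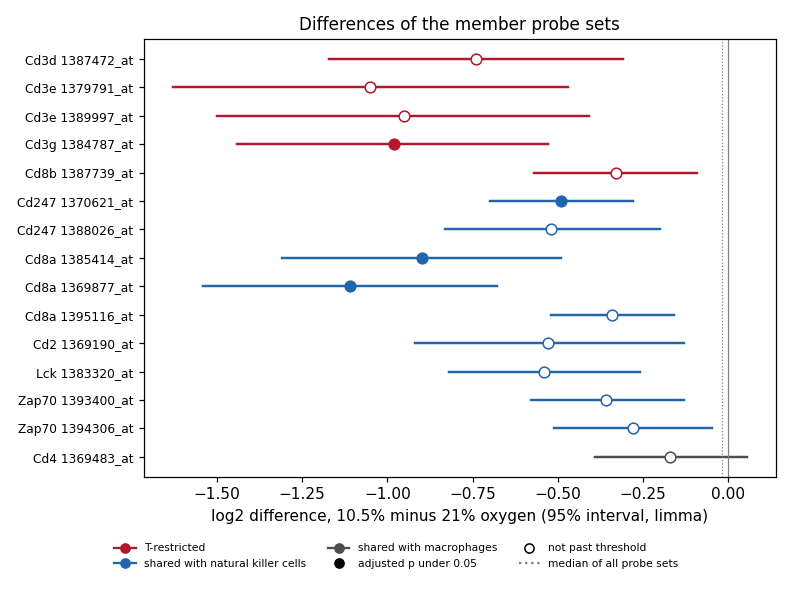
Log2 difference of each member probe set, 10.5% minus 21% oxygen (horizontal axis), with its 95% interval from limma and n = 3 arrays per group; filled points passed an adjusted p of 0.05. The intervals of 14 probe sets lie below 0, and that of Cd4 reaches 0.054.

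The T-restricted genes were set beside those shared with natural killer cells, with the probe set of highest mean standing for each gene. The median difference was -0.86 over the 4 T-restricted genes, of which 1 passed, and -0.53 over the 5 shared genes, of which 2 passed. The classes overlapped in size: Cd8b (-0.33) was nearer to Zap70 (-0.36) than to the CD3 genes, and Cd8a (-0.90) lay among the CD3 genes. The other Cd8a probe sets gave -1.11, beyond each T-restricted gene, and -0.34. Cd8b stood at 5.06 to 5.12 in hypoxia, close to the highest bacterial control at 5.0, which limits how far it could read lower. The difference between 2 genes within an array was compared between groups for the 20 pairs of a T-restricted and a shared gene. The T-restricted gene was lower by more in 14 of the 20, and the groups overlapped in 18. Cd3g minus Cd247 read -1.11, -1.73 and -1.43 in ambient and -2.20, -1.79 and -1.76 in hypoxia, with no overlap (two-sided exact permutation p = 0.1, which is as low as 3 arrays against 3 can reach; adjusted over the 20 pairs 0.545). Cd8b minus Cd8a read -2.41, -2.60 and -2.13 in ambient and -1.41, -2.0 and -2.02 in hypoxia, the opposite way (exact permutation p = 0.1, adjusted 0.545). The nearness of Cd8b to background limits each pair that holds it. Cd3g minus Lck overlapped between groups (exact permutation p = 0.2). As no pair could go below 0.1, the permutation test could not pass any of the 20, and nothing is concluded from it.

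The arrays within a group ordered the classes differently. At each of the 5 T-restricted probe sets, ambient replicate 2 was the lowest ambient array. Among the 9 shared probe sets it was the lowest at 1, ambient replicate 1 at 4 and ambient replicate 3 at 4. Averaged over Cd3d, Cd3e and Cd3g, the ambient arrays read 7.63, 6.84 and 7.52 and the hypoxia arrays 6.18, 6.33 and 6.71. Averaged over Cd247, Lck and Zap70, the ambient arrays read 9.73, 9.79 and 9.98 and the hypoxia arrays 9.26, 9.32 and 9.53. The ambient array with the least CD3 therefore had a middle level of the signalling genes. In hypoxia, replicate 3 was the highest array at each of the 9 shared probe sets and at 4 of the 5 T-restricted ones.

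**Figure D3:**
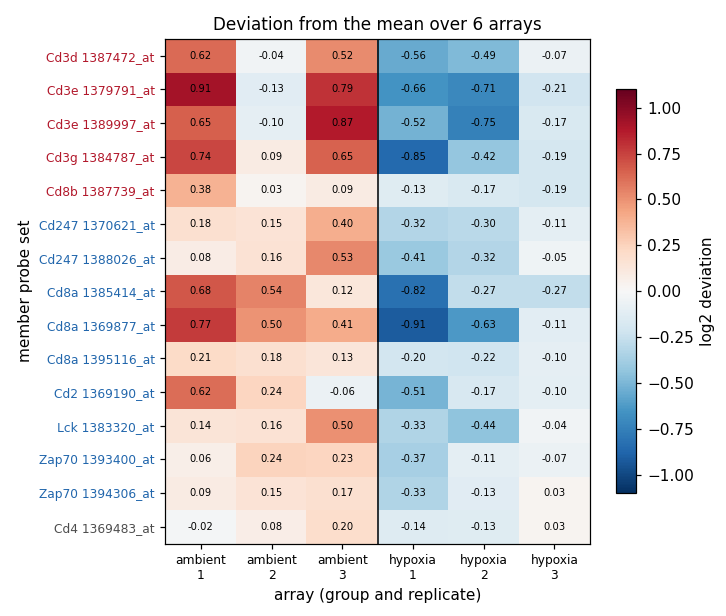
Log2 deviation of each member probe set (rows) on each array (columns) from its own mean over the 6 arrays; red is above and blue below that mean, and label colours give the class as in the plots of levels and differences. The CD3 rows are near 0 on ambient replicate 2 (-0.13 to 0.09), where the rows of Lck and Zap70 stand at 0.15 to 0.24.

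Other genes of the pathway had mixed differences. Of 42 listed genes of T cell receptor signalling, 34 were on the array, 28 had a difference below 0, 2 fell and 32 did not pass (median -0.18), beside 1.12% of all probe sets called lower. The 2 were Sh2d1a, the adaptor SAP of T and natural killer cells, by -0.46 (SE 0.092, limma adjusted p = 0.0338), and Rasgrp1, which activates Ras downstream of diacylglycerol, by -0.67 (SE 0.14, adjusted p = 0.0419). Each call ended when an array other than hypoxia replicate 3 was left out. Skap1, an adaptor for T cell adhesion, had the largest difference of the list, -0.82 (adjusted p = 0.0518). Fyn, the other Src-family kinase of the receptor, was higher by 0.24 (adjusted p = 0.162), and Lat, the scaffold that Zap70 phosphorylates, by 0.27 (adjusted p = 0.318). Fyn and Lat thus had differences of the opposite sign to Lck and Zap70, without passing the test.

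Of 22 other T cell markers, 9 were on the array, and 1, beside 1.12% of all probe sets, was called: Lef1, a transcription factor of lymphocytes and of other tissues, which fell by -0.45 (SE 0.086, limma adjusted p = 0.0281). It did not pass when an array other than hypoxia replicate 3 was left out. Bcl11b, which fixes T cell identity, had its groups apart at -0.66 (adjusted p = 0.0656). The label of a T cell signal was checked against these markers, with mixed results. CD3 genes stood above the bacterial controls, apart from the hypoxia replicate 2 value of the dimmer Cd3e probe set. The T cell surface genes Cd28 (4.43 ± 0.13 in ambient), Cd40lg (4.27 ± 0.095), Il2ra (4.33 ± 0.037) and Trat1 (3.44 ± 0.089) lay below the highest control on all 6 arrays. Cd5 lay below it on all but hypoxia replicate 3. Tcf7, a marker that is not a surface gene, had means below it (4.85 ± 0.28 in ambient, 4.91 ± 0.22 in hypoxia). It stood above that control on 1 array of each group. Other surface genes of the same lists stood above the controls on all 6 arrays: Icos (6.41 ± 0.26 in ambient), Cd6 (5.96 ± 0.12), Cd69 (8.74 ± 0.27) and Thy1 (7.81 ± 0.16). Il7r did so on all but 1 hypoxia array. Means lay above the controls for 6 of the 9 markers and for 30 of the 34 signalling genes. The constant regions of the receptor chains were among the 22 listed markers but matched no probe set annotated to 1 gene, so they have no values here.

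Some markers of other leukocytes were also lower in hypoxia, and their part in the result was not tested. Of 28 natural killer genes on the array, members left out, 7 fell and 21 did not pass (median -0.19), beside 1.12% of all probe sets called lower, and 20 of the 28 had a difference below 0. Klrd1, a lectin-like receptor chain, was higher by 0.52 without passing (adjusted p = 0.212). They included Cst7, a granule protease inhibitor (-0.73, SE 0.11, limma adjusted p = 0.0111), the signalling chain Fcer1g (-0.57), the granule protein Nkg7 (-0.46) and the transcription factor Eomes (-0.39). Cst7 did not pass without ambient replicate 3 (adjusted p = 0.0512), Nkg7 without hypoxia replicate 1 (0.051), nor Eomes with either ambient replicate 2 or 3 or hypoxia replicate 1 left out (up to 0.0689). The mean log2 level of that list was 8.61 to 8.65 over the ambient arrays and 8.38 to 8.52 over the hypoxia arrays. Ncr1, a defining natural killer receptor, stood at 6.81 ± 0.093 and 6.80 ± 0.44, a difference of -0.012 (95% interval -0.44 to 0.42), and 5 of the 28, Ncr3, Klrb1b, Klre1, Gzma and Ifng, had means at or below the bacterial controls. Of 10 genes of most leukocytes, 6 fell and 4 did not pass (median -0.47, again beside 1.12%). Rac2, a leukocyte GTPase, fell by -0.59 and Coro1a, an actin regulator, by -0.62, while Ptprc, the pan-leukocyte antigen CD45, was at -0.19 (adjusted p = 0.426). Rac2 and Coro1a lost their calls when ambient replicate 2, hypoxia replicate 1 or hypoxia replicate 2 was left out, and Coro1a also without ambient replicate 1 or 3 (up to 0.0911). That list averaged 11.39 to 11.67 in ambient and 10.96 to 11.21 in hypoxia.

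Of 14 macrophage genes, 2 fell and 12 did not pass (beside 1.12% of all probe sets, median -0.29, mean level 7.98 to 8.26 in ambient and 7.68 to 8.02 in hypoxia). The 2 were the hemoglobin scavenger receptor Cd163, by -1.05 (SE 0.096, limma adjusted p = 0.00207), and the integrin Itgam, by -0.60 (adjusted p = 0.0246), whereas the macrophage coreceptor Cd4 did not pass. Itgam did not pass when ambient replicate 2 or 3, or hypoxia replicate 1 or 2, was left out (up to 0.0964). It read 4.88, 5.11 and 5.14 in hypoxia, near the highest bacterial control at 5.0, which limits the size of its difference. An offset of 64 brought that difference to -0.23. Of 7 B cell genes, 0 passed by limma. At an unadjusted p under 0.05 there were 2 of the 7, beside 19.3% of all probe sets in either direction: Fcrla, higher by 0.60 (adjusted p = 0.0756), and Blk, which lay below the highest bacterial control on all 6 arrays and is given no difference. Of these 7, 5 had means at or below the bacterial controls, among them Blk, Cd79b and Ms4a1. Their list averaged 5.14 to 5.19 in ambient and 5.08 to 5.21 in hypoxia.

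**Figure D4:**
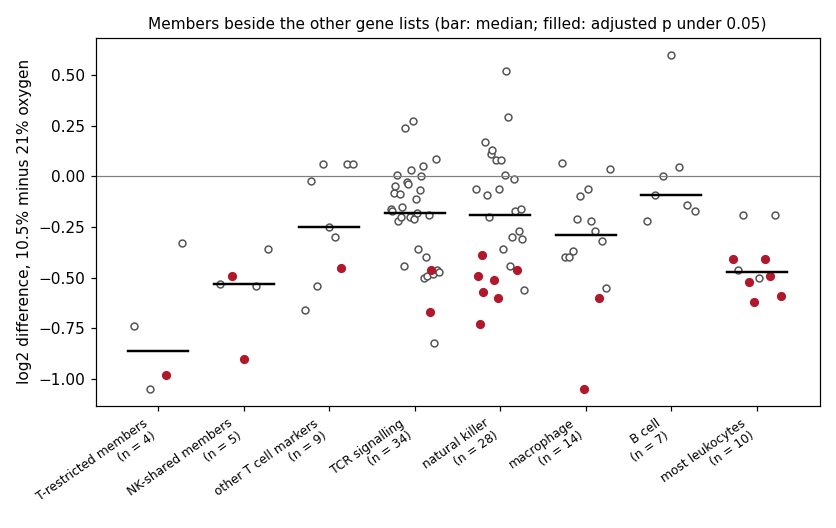
Log2 difference, 10.5% minus 21% oxygen (vertical axis), of each gene in the 2 main member classes and in the other lists, with 1 probe set per gene; bars are list medians and filled points passed an adjusted p of 0.05. The T-restricted members have the lowest median, -0.86, and the natural killer and pan-leukocyte lists hold 7 and 6 of the filled points.

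The genes whose profiles over the 6 arrays were nearest to those of Cd3g and Lck were sought by the root mean square difference of centred log2 values, among named genes with a mean above the bacterial controls. Nearest to Cd3g were Ctnnd2, a catenin (0.167), Gzmf, a granzyme (0.179), and Aloxe3, a lipoxygenase (0.226). Nearest to Lck were Sema4d, a semaphorin of lymphocytes (0.0198), Itgb2, the leukocyte integrin beta chain (0.0442), and Myo1g, a myosin of blood cells (0.0474). Closeness to Cd3g or Lck fixes the direction of these 6 genes, so nothing was read from it.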

How the data were processed

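The deposited table holds log2 values, 1 per probe set and array, made by the authors; a log2 scale was inferred from their range, 2.98 to 14.9. Per the submitters' processing notes MAS5 and Affymetrix Expression Console were used, with no role or version; how background, summarization and scaling were handled is not stated in these sources. Of 31099 probe sets, 57 controls were left out and 31042 tested. The platform annotation gave 20826 of them 1 symbol, 436 several and 9780 none, and 20758 of the 20826 were found in the RefSeq table of GRCr8, with 0 symbols changed. Groups were compared by limma 3.58.1 under R 4.3.3 (lmFit, eBayes with a mean-variance trend, group as the only term, two-sided, Benjamini-Hochberg adjustment over all 31042), at an adjusted p of 0.05. Changes are log2 differences, hypoxia minus ambient. The fit was tested on simulated data. A list's gene is represented by its probe set of highest mean. Of each list the text names up to 4 genes past the threshold by smallest p, or 2 where none passed. Skap1, Fyn, Lat, Bcl11b, Cd28, Cd40lg, Il2ra, Trat1, Cd5, Tcf7, Icos, Cd6, Cd69, Thy1, Il7r, Klrd1, Ncr1, Ptprc, Cd79b and Ms4a1 were named after their values were seen. The members and lists were chosen with earlier results of these data known. Precision is limited by the number of arrays. No 2 arrays held identical values. Plots were drawn with matplotlib 3.10.9.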

Additional observations from a re-analysis of the deposited data

How the results depend on the processing

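Differences of the 15 member probe sets stayed below 0 in all 196 values under the alternatives run: a 40% filter on low means, quantile normalization, median centring, an offset of 64, no mean-variance trend, array weights, the replicate number as a block, each array left out, and the mean of a gene's probe sets. The 40% filter kept 12 of the 15. With 1 array left out, the count of member probe sets called was 0 to 6, and that of all probe sets 310 to 1076 against 1073. The members' count was 4 without ambient replicate 2 and 6 without hypoxia replicate 3. With the other settings the members' count was 5 or 6, except with the replicate block, where it was 9 (all probe sets 1426). Whether same-numbered arrays belong together is not stated in the labels. Deviations of same-numbered arrays correlated at -0.0055, 0.068 and 0.054, and those of differently numbered arrays at -0.13 to 0.085. With 3 arrays per group these values cannot settle whether the arrays were paired. Cd3d (adjusted p = 0.0286), Cd3e (0.015) and Lck (0.00361) passed with that block. The 15 genes picked from the other lists by smallest p gave 193 values. Arhgdib and Lcp1 of the leukocyte list are among them, and the genes named after their values were seen are not. Of the 193, 147 kept their side of the threshold, 45 lost a call, 1 gained one and 0 reversed. An offset of 64 brought the difference of Cd3e to -0.61 and that of Cd8b to -0.12. Signal near background limits Cd8b and the dimmest probe sets of Cd8a and Cd3e.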

Other observations

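Cd3g, Cd3d and Cd3e lie beside each other in the GRCr8 annotation with no other gene of the array between them, as do Cd8b and Cd8a. The nearest genes on the array to either side, chosen after the members' values were seen, did not pass the limma test. Beside the CD3 genes, Atp5mg, a subunit of ATP synthase, differed by -0.0017, Ube4a, a ubiquitin ligase, by 0.093, Mpzl2, an adhesion protein, by -0.26 and Scn2b, a sodium channel subunit, by 0.32 (adjusted p from 0.292 to 0.993). Beside the CD8 genes, Smyd1 differed by 0.016, Krcc1 by 0.085, Rnf103 by 0.32 and Chmp3 by 0.15 (adjusted p from 0.0757 to 0.937), and the groups did not overlap at Rnf103 and Chmp3, which were higher in hypoxia, as were 11.6% of all probe sets.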
